A study of Mus musculus with 17 samples.

Results

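Nodal signalling was followed through 10 genes that encode its ligands, antagonists, co-receptor, receptors and nuclear effectors, out of 23891 gene symbols in the RNA-seq files. They were found in the files by gene symbol, the genes having been chosen with earlier results of these data known, and each gene is given by the RefSeq transcript with the highest mean level over the 17 samples. Smad2 has 2 transcripts, of which the second stayed near 0, and the other 9 members have a single transcript. All 170 member values were marked as properly estimated by Cufflinks, and no filter on low values was applied.

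The samples are mouse cells in culture, sequenced to compare unipotent spermatogonial stem cells (SSC) with pluripotent and other cells. There are 4 SSC lines and 6 lines of MASC, which are cells that arise spontaneously when SSCs are kept in long-term culture. The authors describe MASCs as multipotent and near-pluripotent, and they are counted here with ESCs and iPS cells as pluripotent lines. The other samples are 2 embryonic stem cell (ESC) lines, 2 induced pluripotent stem cell (iPS) lines and 2 haematopoietic cultures (HSC). There is also 1 sample of mouse embryonic fibroblasts (MEF). By the labels, ESC 1, MASC 1, MASC 2, SSC 1 and SSC 2 carry Oct4-GFP. ESC 2, MASC 3, MASC 4, SSC 4, both iPS lines and MEF are 129mix, MASC 5 and MASC 6 are Gt(ROSA26)Sor-lacZ, and SSC 3 and both HSC cultures are C57Bl/6J. No sample was treated with an agent against the pathway. ESCs, MASCs and iPS cells grew on feeder fibroblasts with LIF and serum replacement. SSCs, which came from adult mice, grew on feeder fibroblasts in a medium with some fetal bovine serum, GDNF, bFGF and EGF, and were plated on gelatin before harvest to lower the number of feeders. HSCs are lineage-negative bone marrow cells kept on human endothelial feeder cells with soluble Kit ligand. The iPS lines came from embryonic fibroblasts carrying a doxycycline-inducible cassette of 4 reprogramming factors. ESC and MASC lines were subcloned, so each value describes a cell line and not an animal.

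Nodal is a secreted ligand of the TGF-beta family. It binds activin receptors together with the co-receptor that Tdgf1 encodes, and the receptors phosphorylate SMAD2 and SMAD3, which enter the nucleus with SMAD4 and act on DNA with partners such as FOXH1. The Lefty proteins are secreted antagonists that are themselves induced by the pathway, and embryonic stem cells in culture are known to run this loop on ligand that they make themselves.

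The labels were compared with marker genes before the members were read. Summed over 5 pluripotent markers, the level was 1043 to 1858 FPKM, a level scaled to transcript length and library size, in the 10 ESC, MASC and iPS lines, 7.38 to 113 in SSCs, 1.35 to 1.99 in HSCs and 4.39 in MEF. The highest SSC sum belonged to SSC 1, whose Pou5f1 was at 94.5 FPKM against 1.37 to 5.42 in the other SSC lines. Summed over 5 spermatogonial markers, SSCs had 505 to 562 FPKM and every other sample at most 41.6. Fibroblast markers, which feeder fibroblasts would also carry, varied within groups. HSCs had human endothelial feeder cells instead. The sum over 6 of these markers was 825 in MASC 1, 715 in SSC 3, 334 in HSC 2, 312 in ESC 1 and 299 in SSC 1. It was at most 94.5 in the other libraries apart from MEF, which had 5107. MEF also held blood markers (Spi1 46.1 FPKM and Laptm5 95.2 FPKM), and Laptm5 was at 16.8 to 94.5 FPKM in the pluripotent lines. Cufflinks coverage at 1 FPKM was 1.26 to 3.23 reads per base, and 13532 to 16272 transcripts per sample reached 1 FPKM.

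Both ligands were high in pluripotent lines and near 0 elsewhere. Nodal (NM_013611, mm9 chr10:60880720-60888085) was at 31.6 and 22.8 FPKM in ESCs, 26.7 and 30.5 in iPS cells, and between 18.7 and 37.6 in MASCs, with a median of 21.4. In SSCs it was at 0.0672, 0.752, 0.151 and 0.900 FPKM, in HSCs at 0.0808 and 0.0407, and in MEF it was listed at 0. The pluripotent lines and the other samples did not overlap, and SSC 1, with its higher Pou5f1, had the lowest Nodal value of the SSC lines. The Cufflinks interval of that value, 0.0164 to 0.118 FPKM, overlapped with that of SSC 3, 0.06 to 0.242 FPKM. SSC 1 also had the highest Tdgf1 of the SSC lines, 0.663 FPKM, and was neither highest nor lowest for Gdf3, Lefty1, Lefty2 and Foxh1. For Nodal, MASCs exceeded SSCs by 4.16 ± 0.26 (SE) on the log2(FPKM + 1) scale (limma over the 12 SSC, MASC and ESC lines, adjusted p = 3.55e-06). Because 1 is added before the logarithm, this scale understates the change of a gene near 0. In bulk RNA, fewer cells that express a gene and less RNA per cell cannot be told apart.

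Gdf3, a related ligand that shares the co-receptor (NM_008108, chr6:122555421-122560089), had 45.2 and 36.1 FPKM in ESCs, 36.4 and 25.5 in iPS cells, and 27.6 to 36.8 in MASCs, with a median of 29.9. SSCs had 0.497, 0.553, 0.445 and 0.62 FPKM, HSCs 1.06 and 1.17, and MEF 0.215. The values of each group lay close together, and MASCs exceeded SSCs by 4.37 ± 0.08 (adjusted p = 2.85e-09). HSCs lay above SSCs by 0.47 ± 0.14 without overlap (adjusted p = 0.0187), which is below the size required of a call here.

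**Figure D1:**
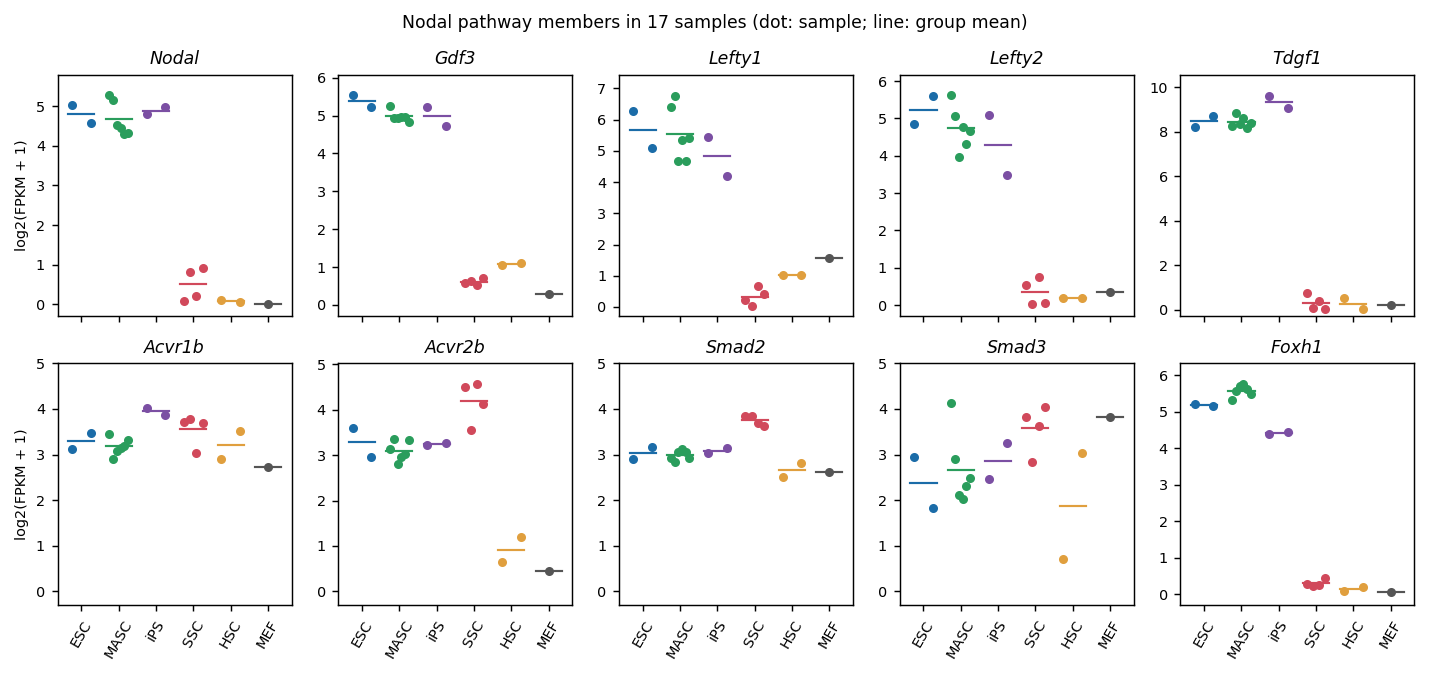
Level of each member as log2(FPKM + 1) on the vertical axis, by cell type on the horizontal axis. Each dot is a sample and each line a group mean. In 6 panels (Nodal, Gdf3, Lefty1, Lefty2, Tdgf1 and Foxh1) the 10 pluripotent lines stand well above all other samples. The group means of Acvr2b and Smad2 are highest in SSCs, with overlap between SSCs and ESCs for Acvr2b. Smad3 is spread widely within groups.

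The antagonists Lefty1 and Lefty2, which bind the ligand and its co-receptor, followed the ligands but varied more among lines. Lefty1 (NM_010094, chr1:182865170-182868532) was at 76.0 and 33.1 FPKM in ESCs, 42.7 and 17.4 in iPS cells, and from 24.3 through a median of 40.8 to 108 in MASCs. SSCs had 0.175, 0.0252, 0.584 and 0.320 FPKM, HSCs 1.04 and 1.03, and MEF 1.97. The groups of pluripotent and other samples did not overlap, and the difference of MASCs from SSCs was 5.21 ± 0.45 (adjusted p = 2.69e-05). Lefty2 (NM_177099, chr1:182823250-182829233) was at 28.1 and 47.4 FPKM in ESCs, 33.0 and 10.3 in iPS cells, and from 14.6 through a median of 25.3 to 48.0 in MASCs. In SSCs its values were 0.446, 0.0156, 0.696 and 0.0419 FPKM, in HSCs 0.142 and 0.145, and in MEF 0.266. MASCs exceeded SSCs by 4.39 ± 0.32 (adjusted p = 8.78e-06). Among the 10 pluripotent lines the ratio of Lefty1 to Nodal ran from 0.570 in iPS 2 to 3.14 in MASC 2, and Lefty1 exceeded Lefty2 in all of them except ESC 2, where the ratio was 0.699.

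The Lefty genes are near copies of each other, which bears on how exactly their levels are known. Their coding sequences, of 1107 bases each, are identical at 91.9% of positions. Of the 32-base words in the Lefty1 transcript of GENCODE, 24.4% occur again in mm9, all of them at Lefty2, and of those in Lefty2 26.6% occur elsewhere. Reads that map to more than 1 place had been excluded by the authors, so both values rest on reads that map to a single place. Read length was not used here, so the shares of 32-base words are not shares of excluded reads. The windows of 250 bases before each start are shown because both genes rose together with Nodal and because the copies can be compared there. They were read from the mm9 genome on the strand of the gene, with each match to the SMAD-binding letters CAGAC or their reverse GTCTG in capitals. The window of Nodal is chr10:60880470-60880719 (plus strand), that of Lefty1 chr1:182864920-182865169 (plus strand) and that of Lefty2 chr1:182823000-182823249 (plus strand).
Nodal: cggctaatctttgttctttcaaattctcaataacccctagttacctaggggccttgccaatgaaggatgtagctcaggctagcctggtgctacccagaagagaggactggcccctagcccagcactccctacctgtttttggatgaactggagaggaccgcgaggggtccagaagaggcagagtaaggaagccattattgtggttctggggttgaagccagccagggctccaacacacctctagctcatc
Lefty1: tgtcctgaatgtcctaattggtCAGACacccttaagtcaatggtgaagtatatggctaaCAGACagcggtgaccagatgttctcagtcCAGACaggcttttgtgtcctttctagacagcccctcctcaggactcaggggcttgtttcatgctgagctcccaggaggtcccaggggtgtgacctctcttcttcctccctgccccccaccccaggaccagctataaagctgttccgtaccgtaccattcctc
Lefty2: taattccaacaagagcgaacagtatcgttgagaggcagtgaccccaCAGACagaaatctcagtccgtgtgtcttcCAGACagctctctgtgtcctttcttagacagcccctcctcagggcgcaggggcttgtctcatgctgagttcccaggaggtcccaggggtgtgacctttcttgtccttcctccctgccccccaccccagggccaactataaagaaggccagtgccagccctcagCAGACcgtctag
Each Lefty window holds 3 matches, and the window of Nodal holds none. Of 20826 windows read in the same way, 40.6% held at least 1 match and 1.88% held 3 or more. Aligned end to end, the Lefty windows were identical at 64.6% of 263 columns, and their longest shared run covers 27 bases, from 94 to 68 bases before the start of Lefty1 and from 106 to 80 bases before that of Lefty2. Among the other members, Gdf3 and Foxh1 had 2 matches each and Tdgf1 had 1. The FOXH1-binding letters AATCCACA and AATACACA, with their reverses, were found in none of the windows of the 9 members searched, which leave out Smad2, and in 0.691% and 0.701% of all windows. The octamer letters ATTTGCAT and the SOX letters ACAATG, on both strands, were also in none of them and in 1.64% and 8.76% of all. The TATA box letters TATAAA, in 11.7% of all windows, were in both Lefty windows, ending 26 bases before the start of Lefty1 and 35 before that of Lefty2. No match overlapped with another. A match is only a run of letters, and no match says nothing about binding elsewhere at the gene.

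Within the pluripotent lines, Lefty1, Nodal and Smad2 did not overlap between the Oct4-GFP lines and the others, with Smad2 in the opposite direction. The gap was wide for Lefty1 only: for Nodal it was 31.6 against 30.5 FPKM, and for Smad2 6.57 against 6.65. The share of all transcripts that separate these lines was not computed, so whether the separation is particular to these members cannot be said. The 3 Oct4-GFP lines (ESC 1, MASC 1 and MASC 2) had Lefty1 at 76.0 to 108 FPKM, and the other 7 lines at 17.4 to 42.7. Nodal was at 31.6 to 37.6 FPKM in the Oct4-GFP lines, against 18.7 to 22.8 in the remaining ESC and MASC lines and 26.7 to 30.5 in iPS cells. Smad2 was lower in the Oct4-GFP lines, at 6.15 to 6.57 FPKM against 6.65 to 7.94 in the others. Lefty2 did not separate in this way, with 28.1 to 48.0 FPKM in the Oct4-GFP lines and 10.3 to 47.4 in the others. Tmem63a, which lies next to Lefty1 on the side away from Lefty2, was at 7.82 to 11.9 FPKM in the Oct4-GFP lines and 3.41 to 6.80 in the others, whereas Sde2, on the other side of Lefty2, had 26.7 to 29.4 and 22.3 to 36.3 FPKM. Fibroblast markers were high in ESC 1 and MASC 1, and MEF itself had 1.97 FPKM of Lefty1 and 21.0 of Tmem63a. Over all transcripts, MASC 1 and MASC 2 also stood apart, with r of 0.943 to 0.948 to the other 4 MASC lines, which had r of 0.97 to 0.98 among themselves. The separation was noticed in the data and was not tested, and strain cannot be told apart here from anything else the Oct4-GFP lines share.

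**Figure D2:**
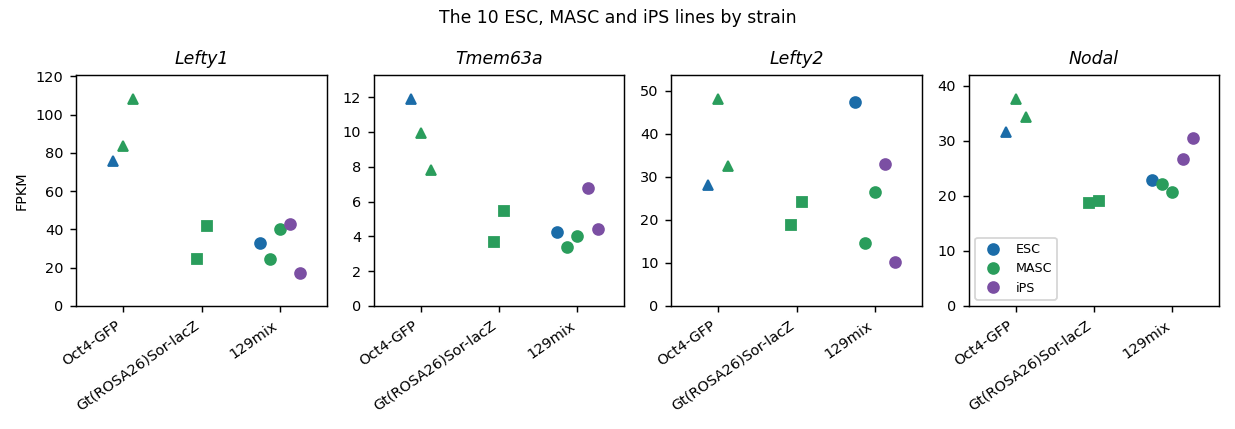
FPKM on the vertical axis of Lefty1, its neighbour Tmem63a, Lefty2 and Nodal in the 10 pluripotent lines, grouped by the strain in the labels on the horizontal axis and coloured by cell type. Each symbol is a line. The Oct4-GFP lines are the highest for Lefty1, Tmem63a and Nodal, but not for Lefty2.

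Tdgf1, which encodes the co-receptor Cripto, was the most abundant member per transcript length. Tdgf1 (NM_011562, chr9:110842112-110848662) had 296 and 422 FPKM in ESCs, 783 and 532 in iPS cells, and from 289 through a median of 333 to 454 in MASCs. SSCs had 0.663, 0.0410, 0.301 and 0.0137 FPKM, HSCs 0.425 and 0.0112, and MEF 0.145. Every pluripotent line was therefore far above every other sample, and the difference of MASCs from SSCs, 8.15 ± 0.18, was the largest of all members (adjusted p = 5.17e-09). Both iPS lines were above all ESC and MASC lines, but iPS cells differed from ESCs by 0.87 with a 95% interval from 0.21 to 1.52, and this did not pass the adjustment over all transcripts (adjusted p = 0.389). Of the 32-base words in the transcript, 40.5% occur elsewhere in mm9, most of them (757 of 1894 words) within chr16:3730371-3732692, where GENCODE has no annotated gene. The level of Tdgf1 rests on reads that map to a single place, since reads with several positions had been excluded.

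The receptors showed another pattern. Acvr1b encodes the type I receptor that phosphorylates the SMADs and was expressed in every sample. It was at 7.65 and 10.0 FPKM in ESCs, 15.2 and 13.7 in iPS cells, 6.46 to 9.98 in MASCs, 12.1, 12.8, 7.21 and 11.97 in SSCs, 6.53 and 10.4 in HSCs and 5.66 in MEF. Cell types overlapped, apart from the iPS lines, which had the highest values, and MASCs differed from SSCs by -0.38 (95% interval -0.74 to -0.01, adjusted p = 0.116). Without the 5 libraries with fibroblast marker sums above 200 FPKM, the difference was -0.62 (adjusted p = 0.0127 by limma), still below the size of 1 required of a call. These libraries include SSC 1 and SSC 3, and SSC 3 has the lowest Acvr1b of the SSC lines. Acvr2b, which encodes a type II receptor that binds the ligand, was highest in SSCs. Its values were 21.5, 10.7, 22.6 and 16.5 FPKM there, 5.93 to 9.15 with a median of 7.47 in MASCs, 11.1 and 6.74 in ESCs, 8.37 and 8.59 in iPS cells, 0.571 and 1.28 in HSCs and 0.374 in MEF. MASCs did not overlap with SSCs and lay below them by 1.08 log2 units (difference -1.08 ± 0.22, adjusted p = 0.00419). That call was close to the size required. It was lost when single lines were left out (-0.98 without SSC 1 and -0.96 without SSC 3), with strain as a block (-0.95, adjusted p = 0.0346), under quantile normalization (-0.89, adjusted p = 0.0172) and with a replicate block (-1.13, adjusted p = 0.0584). Without the 5 libraries with fibroblast marker sums above 200 FPKM the difference was -0.75 (adjusted p = 0.0673). HSCs lay below SSCs by far more, -3.26 ± 0.28 (adjusted p = 3.41e-06).

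Smad2 and Smad3, the receptor-regulated SMADs, behaved differently from each other. Smad2 was at 13.4, 13.3, 11.96 and 11.4 FPKM in SSCs, 6.15 to 7.69 with a median of 6.96 in MASCs, 6.45 and 7.94 in ESCs, 7.20 and 7.80 in iPS cells, 4.65 and 6.08 in HSCs and 5.14 in MEF. All SSC lines were above all other samples. The difference was -0.77 ± 0.07 for MASCs (adjusted p = 5.07e-05), -0.73 ± 0.10 for ESCs (adjusted p = 0.000802) and -0.67 ± 0.11 for iPS cells (adjusted p = 0.000896). These passed the adjusted p but not the size of 1 log2 unit required of a call, whereas HSCs, at -1.09 ± 0.11, passed both (adjusted p = 1.10e-05). Under quantile normalization the difference of HSCs was -0.84, below that size.

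Smad3 (NM_016769, chr9:63494574-63605801) spanned 13.1, 6.13, 11.4 and 15.5 FPKM in SSCs, 3.07 to 16.5 with a median of 4.26 in MASCs, 6.65 and 2.53 in ESCs, 4.49 and 8.60 in iPS cells, 0.638 and 7.20 in HSCs and 13.2 in MEF. Groups overlapped, and MASCs differed from SSCs by -0.92 ± 0.45 (adjusted p = 0.157). The value of MASC 1, 16.5 FPKM, lay far above the 6.53 or less of the other MASC lines, and without it the difference was -1.22 (adjusted p = 0.0204), which would be called. Without the 5 libraries with high fibroblast markers it was -1.07 (adjusted p = 0.112). Smad3 was higher in the library with the higher fibroblast sum in ESCs, iPS cells and HSCs, and highest in MASC 1, which had the highest sum of the MASC lines. In SSCs the highest Smad3 was in SSC 4, whose fibroblast sum was 64.2. Feeder RNA as a part of Smad3 was not tested, and the feeder cells of the HSC cultures were human endothelial cells, not fibroblasts. Smad2 was also higher in the library with the higher fibroblast sum in iPS cells (7.80 against 7.20 FPKM) and HSCs (6.08 against 4.65 FPKM). In ESCs it was lower in that library (6.45 against 7.94 FPKM). MASC 1, at 6.57 FPKM, was inside the range of the other MASC lines, and SSC 3, at 11.96 FPKM, inside that of the other SSC lines. The ratio of Smad2 to Smad3 ran from 0.391 in MEF and 0.398 in MASC 1 to 3.14 in ESC 2 and 7.29 in HSC 1.

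**Figure D3:**
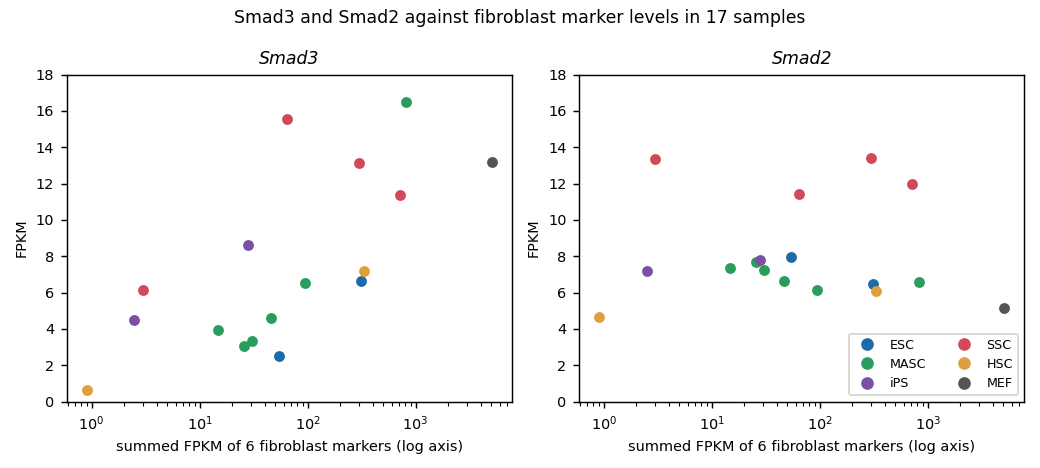
FPKM of Smad3 (left) and Smad2 (right) on the vertical axis against the summed FPKM of 6 fibroblast markers on a log axis. Each dot is a sample, coloured by cell type. The libraries with the highest marker sums in MASCs and HSCs also have the highest Smad3 of their groups, and the 4 SSC lines lie above all other samples for Smad2 whatever their marker sum.

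Foxh1, the DNA-binding partner of the SMADs (NM_007989, chr15:76498654-76500378), was again high in pluripotent lines and near 0 in the other samples. It was at 36.2 and 34.9 FPKM in ESCs, 19.8 and 20.8 in iPS cells, and from 39.2 through a median of 47.2 to 53.0 in MASCs. SSCs had 0.203, 0.167, 0.201 and 0.366 FPKM, HSCs 0.0525 and 0.149, and MEF 0.0344. The pluripotent groups did not overlap with each other either, in the order MASC, ESC and iPS. MASCs exceeded SSCs by 5.28 ± 0.08 (adjusted p = 9.91e-10). In the fit over all 17 samples, iPS cells lay below MASCs by 1.16 ± 0.10 log2 units (MASC minus iPS, adjusted p = 0.000137) and below ESCs by 0.78 (difference -0.78 ± 0.12, adjusted p = 0.0175). ESCs and MASCs differed by -0.39 (95% interval -0.62 to -0.16), which did not pass the adjustment (unadjusted p = 0.00405 and adjusted p = 1 by limma). iPS cells had the highest Tdgf1 and Acvr1b and the lowest Foxh1 of the pluripotent lines, with no overlap in any of these genes. Between 2 iPS and 2 ESC lines alone, 3 of the 10 members did not overlap, against 40% of all transcripts. Between ESCs and MASCs 1 member, Foxh1, did not overlap, against 5.62% of all transcripts. The share of all transcripts that separate iPS cells from both other groups was not computed.

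Counted together, 6 of the 10 members rose and 1 fell from SSCs to MASCs by the rule of an adjusted p under 0.05 and an absolute log2 difference of at least 1, and 3 were not called. Of all 32661 transcripts, 15.6% were called by the same rule, 6.04% as higher and 9.6% as lower. The median difference was 4.27 over the members and -0.0048 over all transcripts. It was -0.16 over transcripts with at least 1 FPKM in at least 2 lines. All transcripts include those near 0 in every line, and shares over expressed transcripts alone are not given. The groups did not overlap for 8 members, against 25.3% of all transcripts. The members that rose were the ligands, the antagonists, the co-receptor and Foxh1, and the member that fell was Acvr2b. The 6 rises kept their call under each alternative with a test, while Acvr2b lost it under those named above and under a required size of 2, which left 6 members called.

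The same 6 members were higher in ESCs than in SSCs (13.7% of all transcripts called, 4.96% as higher) and higher in iPS cells than in SSCs (15.3% called, 5.77% as higher), and the 4 others were not called in either. These comparisons share their SSC lines with that of MASCs. The differences of ESCs from SSCs were 4.29 for Nodal, 4.76 for Gdf3, 5.35 for Lefty1, 4.89 for Lefty2, 8.17 for Tdgf1 and 4.89 for Foxh1. For iPS cells they were 4.38 for Nodal, 4.36 for Gdf3, 4.49 for Lefty1, 3.95 for Lefty2, 9.04 for Tdgf1 and 4.11 for Foxh1. Acvr2b was lower in ESCs by 0.91 log2 units (difference -0.91, adjusted p = 0.0554) and in iPS cells by 0.94 (difference -0.94, adjusted p = 0.0313). Without SSC 2, which has the lowest Acvr2b of the SSC lines, these were -1.12 (adjusted p = 0.00897) and -1.15 (adjusted p = 0.0043), which would be called.

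Between ESCs and MASCs no member was called by limma (0.0184% of all transcripts were), and 2 had an unadjusted p under 0.05, Gdf3 (difference 0.39) and Foxh1. With 2 ESC lines the intervals are wide for some members. That of Nodal ran from -0.60 to 0.87 and that of Lefty1 from -1.16 to 1.42. These intervals are not adjusted over all transcripts, so differences of about that size, and somewhat larger ones, would not have been called. Between iPS cells and ESCs no member was called either (0.116% of all transcripts were), and 4 had an unadjusted p under 0.05, namely Gdf3, Tdgf1, Acvr1b and Foxh1. Between HSCs and SSCs 2 members were called, Acvr2b and Smad2, both lower in HSCs (22.9% of all transcripts called, 14.2% as lower). The ligands, antagonists, co-receptor and Foxh1 were at most 1.17 FPKM in both groups. Smad3 differed there by -1.71 ± 0.70 (adjusted p = 0.0829). It would be called with a filter of at least 1 FPKM in at least 2 samples (adjusted p = 0.0421), without HSC 2, the HSC culture with fibroblast markers (-2.87, adjusted p = 0.0154), and without the 5 libraries with high fibroblast markers (-2.73, adjusted p = 0.0142). Both of the last leave HSC 1 alone in its group, and its spread is then assumed to be that of the other groups.

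**Figure D4:**
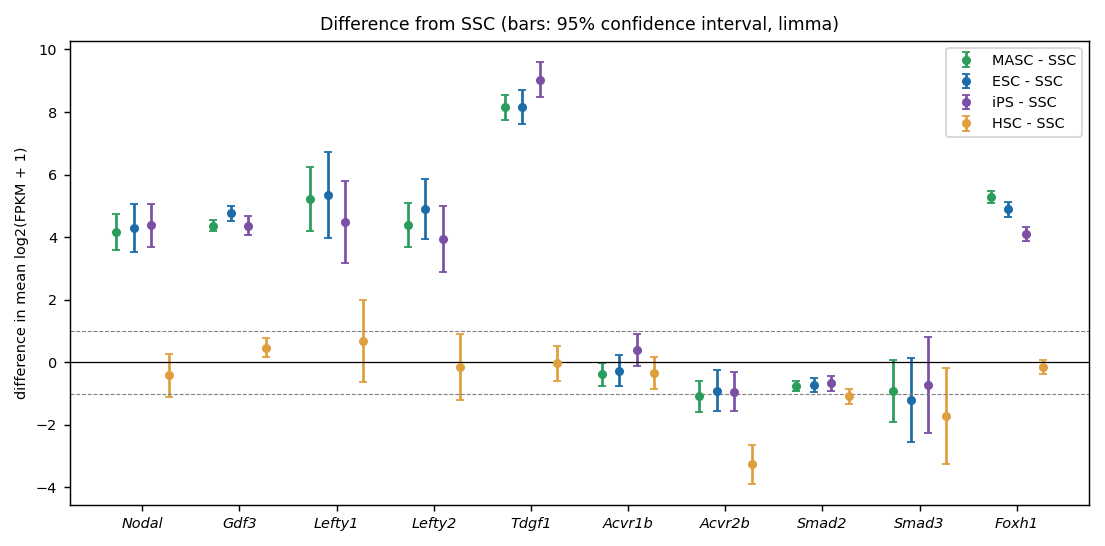
Difference of MASC, ESC, iPS and HSC samples from SSC lines in mean log2(FPKM + 1) on the vertical axis, for each member on the horizontal axis. Dots are the limma estimates and bars their 95% confidence intervals, and dashed lines mark a difference of 1 in each direction. The 6 members on which pluripotent cells lie far above SSCs have HSC intervals that include 0, except for Gdf3.

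Another 27 genes of the pathway were read to see how far the pattern reached. From SSCs to MASCs 1 of them rose, 2 fell and 24 were not called, and their median difference was -0.00093. Their called share lay below the 15.6% of all transcripts. Tgif1, a homeodomain repressor that binds SMAD2, was at 24.1 to 69.2 FPKM in MASCs and at 3.90, 21.2, 2.48 and 10.1 in SSCs. It rose by 2.48 ± 0.55 (adjusted p = 0.00684). Ski, a co-repressor that binds SMAD proteins, was at 119, 47.8, 81.2 and 107 FPKM in SSCs and 26.8 to 32.5 in MASCs, without overlap. It fell, with a difference of -1.5 ± 0.22 (adjusted p = 0.000572). The mesendoderm gene Mixl1 also fell, with a difference of -1.12 ± 0.25 (adjusted p = 0.00717), from 0.619, 3.25, 0.884 and 2.53 FPKM in SSCs to 0.111 to 0.319 in MASCs.

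By role, none of the 4 other ligands and inhibin chains, 4 other antagonists, 3 other receptors or 2 convertases was called between MASCs and SSCs. Among the 8 SMAD partners and inhibitors 1 was called higher (Tgif1) and 1 lower (Ski), and among the 6 targets 1 lower (Mixl1). Dand5, named for an antagonist related to Cer1 but read here from a transcript that RefSeq lists as non-coding (NR_033145, the higher of 2), was lower in MASCs without overlap but just below the size required (difference -0.97, adjusted p = 0.00032). Cer1, which encodes the antagonist Cerberus, was at 0.0616 to 7.59 FPKM in MASCs, with its highest values in the lines MASC 5 (2.44 FPKM) and MASC 6 (7.59 FPKM), and under 0.1 in SSCs, and it was not called. Acvr1c, another type I receptor, was under 0.03 FPKM in every sample, and Cfc1, the other co-receptor gene of this family, stayed under 1 FPKM. Smad7, an inhibitory SMAD that signalling induces, differed by 0.77 (adjusted p = 0.0401) between MASCs and SSCs and was higher in iPS cells than in SSCs by 1.45 (adjusted p = 0.00828). Pcsk6, a convertase that cleaves the Nodal precursor, was at 19.5 and 20.9 FPKM in iPS cells and 1.32 to 5.97 in SSCs, a difference of 2.63 (adjusted p = 0.00288), while MASCs, at 2.76 to 14.0 FPKM, overlapped with SSCs. Furin, the other convertase, stood out in HSCs, at 568 and 42.6 FPKM against 5.89 to 11.96 in SSCs. Inhba and Inha, which encode activin and inhibin chains, Fstl3, an activin-binding protein, and Pmepa1, a target that dampens signalling, were all higher in MASC 1 and in MEF than in most lines (in MEF at 21.4, 4.50, 11.965 and 74.0 FPKM), and none was called between MASCs and SSCs.

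**Figure D5:**
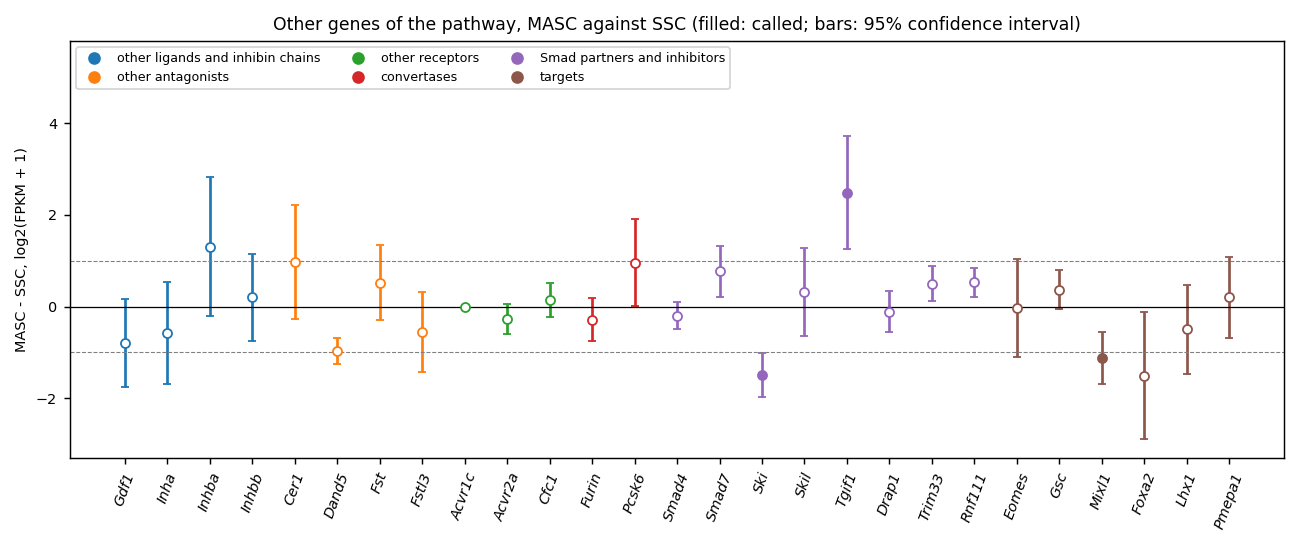
Difference between MASC and SSC lines in mean log2(FPKM + 1) on the vertical axis for the 27 other genes of the pathway on the horizontal axis, coloured by role. Dots are limma estimates, filled where called, and bars are 95% confidence intervals. Filled dots are Tgif1 above 0 and Ski and Mixl1 below it, and most intervals include 0.

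The genes most like each of the 6 rising members were sought among all transcripts with a mean of at least 1 FPKM, by Pearson's r on log2(FPKM + 1). Over all 17 samples, where r rests mainly on the step between pluripotent lines and the rest, the closest were Cldn4, a tight junction gene, for Nodal (0.99), Fgf4, a growth factor gene of early embryos, for Gdf3 (0.99), Gm5088 for Lefty1 (0.98), 1700019D03Rik for Lefty2 (0.98), Pipox for Tdgf1 (0.995) and the zinc finger gene Zscan10 for Foxh1 (0.99). Nanog, the pluripotency factor, was the second closest to Nodal (0.99), and Lefty2 was the third closest to Lefty1 (0.97). Over the 10 pluripotent lines alone the list was different. There, Plxnb2 was closest to Nodal (0.97), Polr3b to Gdf3 (0.93), Mia to Lefty2 (0.92), Txnip to Tdgf1 (0.94) and Impact to Foxh1 (0.98). With 10 lines and 15607 candidate transcripts, these names describe the lines sequenced and were given no test. Between members, r over the same lines varied in sign, from -0.91 for Acvr1b and Foxh1 to 0.81 for Nodal and Smad3. It was 0.61 for Nodal and Lefty1 and 0.71 for Lefty1 and Lefty2, but 0.28 for Nodal and Lefty2, 0.18 for Nodal and Tdgf1, -0.37 for Nodal and Foxh1 and -0.75 for Tdgf1 and Foxh1.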

How the data were processed

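For each of the 17 samples the authors deposited a Cufflinks table with 1 FPKM per RefSeq transcript, made with TopHat2 2.0.11 on mm9 and a Cufflinks run that scaled to the upper quartile and to GC content, after removal of duplicates and multiply mapped reads. The Cufflinks coverage, a signal in reads per base that the authors deposited beside each FPKM, served to describe depth. Of 33262 rows per file, 601 further loci of a transcript were dropped. Groups, replicate numbers and strains came from the labels. The members and lists were chosen with earlier results of these data known.

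Values were analysed as log2(FPKM + 1) with limma 3.58.1 (R 4.3.3), without a filter, over the 12 SSC, MASC and ESC lines, or over all 17 samples for contrasts with iPS cells or HSCs, with Benjamini-Hochberg adjustment over 32661 transcripts. MEF, with 1 sample, had no test. A call needed an adjusted p under 0.05 and an absolute log2 difference of at least 1. On simulated data with normal noise, 186 of 200 transcripts changed by 3 log2 units between MASCs and SSCs were recovered, with 3 false calls. The changed transcripts were drawn from those with a mean log2(FPKM + 1) above 1. Smaller changes, such as those near the size required of a call, were not simulated. No source says which lines share an animal, so p-values measure the spread between lines. No read counts were available. Cufflinks gave a confidence interval with each FPKM, which the tests here did not use. For some SSC values near 0 its lower bound was 0, such as Lefty1 in SSC 2 (0 to 0.0609 FPKM) and Tdgf1 in SSC 4 (0 to 0.0411 FPKM).

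Named genes were the members, 27 other pathway genes, the markers, and for each of 6 members the 3 genes with the highest r. Another pathway gene and the genes most like Lefty1 over the pluripotent lines are not reported here. Sde2 and Tmem63a were named after their values were seen. Sequence came from the mm9 genome and GENCODE vM1. Alternatives were another pseudocount, a filter, quantile normalization, a trend in eBayes, other rows, other samples, blocks for replicate number or strain, other calls, each line left out in turn and, chosen after seeing the data, 5 libraries left out.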

Additional observations from a re-analysis of the deposited data

Results flagged for a closer look

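In groups of 4 to 6 lines, a line was looked at again where it lay far from the rest of its group for the spread among the others. Of 98 pairs of gene and group, 7 stood out in this way, and chance alone gives about 1 in 20. Among the members, Gdf3 in MASC 1 was at 36.8 FPKM, against 27.6 to 30.3 in the other MASC lines. Acvr1b in SSC 3 was at 7.21 FPKM, against 11.97 to 12.8 in the other SSC lines. Among the other pathway genes, Fst, which encodes the activin antagonist follistatin, was at 9.82 FPKM in SSC 2, against 2.05 to 2.31, and the co-repressor Skil was at 5.11 FPKM in MASC 1, against 8.23 to 10.3. Among the markers, Zfp42 was at 0.695 FPKM in SSC 4, against 9.63 to 10.6 in the other SSC lines. The fibroblast gene Lum was at 49.5 FPKM in MASC 1, against 0.552 to 2.45, and Coro1a was at 6.09 FPKM in MASC 2, against 2.83 to 3.73. SSC 3 and MASC 1 have the highest summed fibroblast markers of their groups, 715 and 825 FPKM, and the part of these in the values above was not tested.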

How the results depend on the processing

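The number of members called stayed within 1.5 times its main value under every alternative for MASCs against SSCs, ESCs against SSCs, ESCs against MASCs and iPS cells against SSCs. Between iPS cells and ESCs it was 0, and 1 (Foxh1) by adjusted p with no limit on size. Between HSCs and SSCs it was 2, and 1 under quantile normalization, by the call of the methods (a log2 difference of at least 2 and raw p under 0.05), and without HSC 1, with a range of 1 to 3 over the lines left out. It was 3 with the filter on FPKM and without the 5 libraries with high fibroblast markers, where Smad3 was added, and with no limit on size, where Gdf3 was added. Quantile normalization moved the median difference of transcripts at 1 FPKM or more between MASCs and SSCs from -0.16 to -0.01.

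Signs changed only for differences that were not called. Between ESCs and MASCs, these were Tdgf1 under quantile normalization (-0.00376), Nodal, Lefty1 and Tdgf1 with strain as a block (-0.0461, -0.12 and -0.0544), and Lefty1 and Acvr2b without the 5 libraries with high fibroblast markers (-0.28 and -0.14). Between iPS cells and ESCs they were Acvr2b with strain as a block (0.11) and Acvr2b and Smad2 without those libraries (0.29 and -0.0739). Between HSCs and SSCs they were Lefty2, Tdgf1 and Foxh1 under quantile normalization (0.10, 0.24 and 0.0213), Acvr1b with strain as a block (0.18), and Lefty2 and Tdgf1 without those libraries (0.15 and 0.47). Without those libraries ESC 2 and HSC 1 are each alone in their group. The values then given for iPS cells against ESCs are the same as those without ESC 1. With each line left out in turn, differences of ESCs from MASCs ranged from -0.0953 to 0.36 for Nodal, -0.45 to 0.72 for Lefty1, -0.23 to 0.28 for Tdgf1, -0.0697 to 0.28 for Acvr1b, -0.15 to 0.50 for Acvr2b, -0.0903 to 0.17 for Smad2 and -0.84 to 0.28 for Smad3. Those of iPS cells from ESCs ranged from -0.14 to 0.31 for Nodal, -0.36 to 0.29 for Acvr2b, -0.0739 to 0.19 for Smad2 and -0.0761 to 1.04 for Smad3, and that of HSCs from SSCs from -0.28 to 0.21 for Tdgf1. The cause was not tested.

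Replicate numbers were not taken as pairs. Deviations of same-numbered lines of 2 groups correlated with a mean of 0.05 over 8 pairs (-0.36 to 0.41), and others with -0.01 over 36 (-0.41 to 0.40). The 2 ESC lines deviate from their mean by equal and opposite amounts, so these correlations are not independent. The means therefore cannot decide whether the numbers are pairs. With the replicate block, Acvr2b between MASCs and SSCs was -1.13 (adjusted p = 0.0584), and Nodal, Lefty1 and Tdgf1 between ESCs and MASCs were -0.20, -0.41 and -0.11.

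Within the Oct4-GFP lines Smad3 differed between MASCs and SSCs by 0.19, and within the 129mix lines by -1.98. Depth limits values under 1 FPKM, where few reads stand behind a transcript.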
